A study of Homo sapiens with 12 samples.

Results

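SAHA (vorinostat) is a hydroxamic acid that inhibits class I and class II histone deacetylases, and the genes that still separated 2 human lung cancer cell lines under it are described here. The 3 libraries of SAHA-treated H1703 cells were set against the 3 libraries of SAHA-treated H1299 cells, 6 of the 12 libraries of the study, chosen by their labels alone. All 58302 genes shared by the deposited tables were joined by gene ID. The other 6 libraries are the same lines with the vehicle, 3 of each, and serve here to show which differences were present without the inhibitor. The cells of every group were treated for 24 h, with the vehicle DMSO at 0.1% or with SAHA. The labels list SAHA doses of 2.5, 10 and 40 µM beside 0 and do not say which of them the sequenced cells received. The labels name no genetic change in either line. Each line descends from a single tumour and the labels do not state whether the repeats are separate cultures. The p-values therefore rest on the spread of these libraries, which may be technical only.

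Histone deacetylases remove acetyl groups from histone tails and from other proteins, and their inhibition opens some genes and silences others. Inhibitors of this class are known to induce the CDK inhibitor gene CDKN1A, to stop the cell cycle and to bring neuronal and germline genes into epithelial cells. H1299 is a non-small cell lung carcinoma line, and H1703 is used as a squamous lung carcinoma line and is known for an amplified PDGFRA gene.

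The defining markers were checked before the comparison, and levels are given as CPM, counts scaled to a common library size over all 12 libraries. Where 3 values are given for a line, they are those of its replicates 1, 2 and 3 under SAHA unless DMSO is named. Both lines held keratin transcripts: KRT8 was at 580.2, 649 and 663 CPM in H1299 and 1491, 1646 and 1486 CPM in H1703. Defining squamous markers were low in the libraries labelled H1703, with TP63 at 48, 62 and 70 counts, KRT5 at 2, 0 and 0 counts and DSG3 at 0, 2 and 5 counts. TP63 was still higher there than in H1299 (log2 difference 5.8). The sum of 31 squamous markers was also higher, between 916.1 and 989 CPM in H1703 and between 595.5 and 678.8 CPM in H1299. PDGFRA, the receptor for platelet-derived growth factor, was at 1.2, 1.78 and 1.23 CPM in H1299 and 1.67, 1.22 and 0.92 CPM in H1703, and the lines overlapped. The amplification known for H1703 therefore had no counterpart in the PDGFRA level of the libraries that carry this label, and "H1703" below means those libraries. The adenocarcinoma and alveolar markers SFTPB (0, 0 and 2 counts) and NAPSA (26, 24 and 19 counts) were also low in H1703, although the sum of 22 adenocarcinoma markers lay between 1082 and 1244 CPM there and between 184.1 and 215.9 CPM in H1299. Defining markers of blood cells were at or near 0: PTPRC had 2, 0 and 0 counts in H1299 and 0, 0 and 3 counts in H1703, and MS4A1 had none in any of the 6. TYROBP had 0, 0 and 0 counts in H1299 and 0, 0 and 2 counts in H1703. The summed level of 11 lymphoid markers lay between 1.59 and 2.46 CPM in H1299 and between 3.66 and 4.73 CPM in H1703. The sum of 11 myeloid markers was higher in H1703, from 171.6 to 194.3 CPM against 26.1 to 30.0 CPM. That sum was led by S100A9 and CD14, both treated below.

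The SAHA libraries held 14416126 to 16016332 counts in H1299 and 16699843 to 19408852 in H1703. At least 10 counts were found for 17534 ± 94.7 genes in H1299 and 17348 ± 197 genes in H1703 (SD, n = 3 libraries, as for every SD below). Mitochondrially encoded RNA took 4.10 ± 0.121% of the counts in H1299 and 9.57 ± 1.19% in H1703 under SAHA, against 2.12 ± 0.138% and 5.88 ± 0.418% under DMSO. Leaving those genes out changed the number of genes called between the lines from 12167 to 12096.

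The lines differed over most of the transcriptome under SAHA. Of 18213 genes with enough counts to test, 12167 (66.8%) were called, meaning an adjusted p below 0.05 in edgeR's quasi-likelihood test. Of these, 5953 (32.7% of the genes tested) were higher in H1703 and 6214 (34.1%) were lower. A difference of at least 2-fold was found for 6912 genes (38%), 3410 higher and 3502 lower, and one of at least 16-fold for 1089 genes, 624 higher and 465 lower. The median of the log2 difference over all genes tested was -0.03, and the median of its size was 0.76. The CPM values of the 3 libraries of one line did not overlap those of the other for 12968 genes (71.2%). Long intergenic RNAs were called about as often as protein-coding genes, 544 of 773 (70.4%) against 10092 of 14745 (68.4%). They more often reached 2-fold, 471 of 773 (60.9%) against 5322 of 14745 (36.1%). All of the differences below are H1703 minus H1299, on the log2 scale, with the standard error (SE) of the fit after ±. Counts of list members below stand beside the shares of all genes tested: 66.8% called, 32.7% higher in H1703 and 34.1% lower. In bulk libraries, fewer cells expressing a gene and less RNA per cell cannot be told apart.

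Under DMSO 12260 of 16942 genes tested (72.4%) were called between the lines, 6258 (36.9%) higher in H1703 and 6002 (35.4%) lower. At least 16-fold differences were more numerous there, 1641 genes with 1045 higher and 596 lower. The change of the line difference, SAHA minus DMSO, was tested over all 12 libraries and was called for 6672 of 19105 genes (34.9%). It was negative, a shift towards higher levels in H1299, for 4049 genes (21.2%) and positive for 2623 (13.7%). Its median over all genes was -0.089. The split depended in part on the scaling: with DESeq2's size factors in edgeR 3646 changes were negative and 3033 positive, and the median was -0.021.

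Each gene tested in all 3 fits, 16285 in number, was then followed from DMSO to SAHA. The difference was kept, called in the same direction with both treatments, for 8365 genes (51.4%). These are 70.57% of the genes called under DMSO and 77.06% of those called under SAHA in this set. Among kept genes the change was not called for 5218, the difference narrowed for 1908 and it widened for 1239. Narrowing was mostly of genes higher in H1703 (1236 of 1908) and widening mostly of genes lower in H1703 (745 of 1239). A further 1425 genes closed, meaning called under DMSO and not under SAHA with the change called. Another 1020 opened, called under SAHA alone with the change called, 426 higher and 594 lower in H1703. The order of the lines reversed for 581 genes, with both differences and the change called. Differences of 16-fold or more under DMSO were largely kept in direction but reduced in size: of 1445 such genes, 1374 were called the same way under SAHA, 748 remained at 16-fold or more, 751 narrowed and 21 widened. Because those 1445 genes were picked by their DMSO difference, a smaller one under SAHA is partly built into the choice. Genes of 16-fold or more under SAHA were not followed back in the same way. In the scatter of both line differences, the narrowed genes are the points between the diagonal and the horizontal axis.

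**Figure D1:**
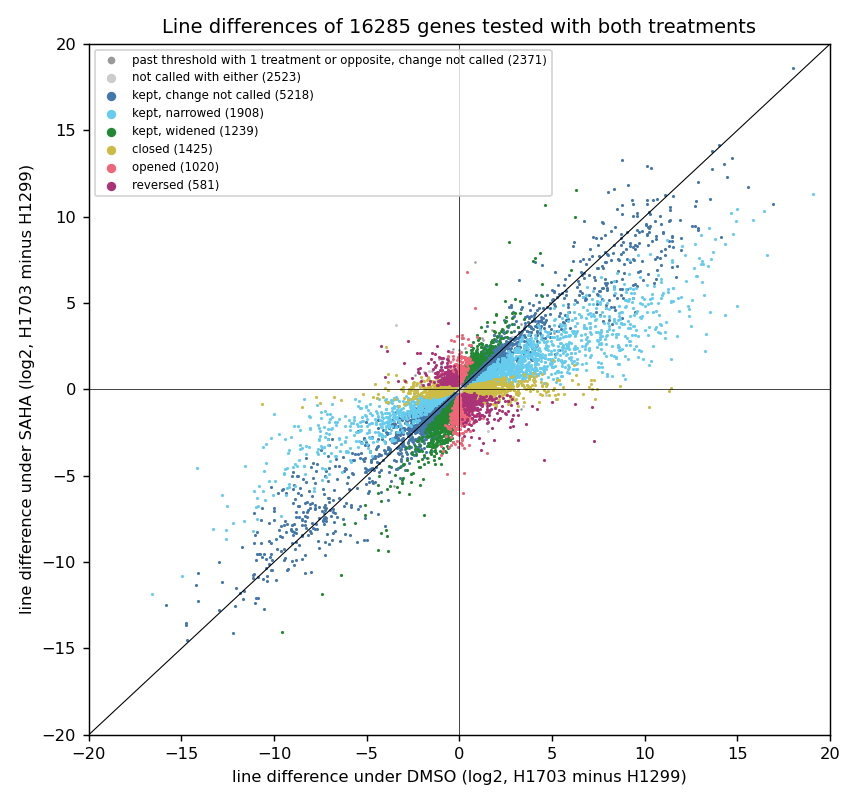
Each point is 1 of 16285 genes tested with both treatments, with the line difference (log2, H1703 minus H1299) under DMSO on the horizontal axis and under SAHA on the vertical axis, and the diagonal marks equal differences. Among the 8365 kept genes the narrowed ones lie between the diagonal and the horizontal axis and the widened ones between it and the vertical axis, the 1425 closed genes lie along the horizontal axis, the 1020 opened genes along the vertical axis and the 581 reversed genes in the opposite quadrants; genes absent from 1 line have differences set by the prior count.

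Genes were ranked where log2 CPM averaged at least 3 over the 6 SAHA libraries, a limit that leaves out genes such as CDKN2A and EREG, which 1 line lacks and which are described with the on-off genes. The 10 largest differences in favour of H1703 were those of a chemokine (CXCL5, among the on-off genes below), acute phase and complement genes, an aldehyde dehydrogenase, a calcium-binding and a matrix protein, an epithelial transcription factor and a small regulator (TCIM). C3, the central complement component, was at 1.91, 2.98 and 2.69 CPM in H1299 and 3381, 3275 and 3149 CPM in H1703. The lines were far apart without overlap, and the line difference was 10.34 ± 0.18 (adjusted p = 4.39e-10, edgeR). Under DMSO C3 had 0, 0 and 0 counts in H1299 and 671, 678 and 696 CPM in H1703. Both lines thus had more C3 under SAHA than under the vehicle, and the difference narrowed (adjusted p of the change = 1.42e-05). The serum amyloid genes SAA1 and SAA2, acute phase proteins of high-density lipoprotein, went the other way. SAA1 was at 0.956, 1.08 and 1.05 CPM in H1299 and 1699, 1965 and 1440 CPM in H1703, a difference of 10.69 ± 0.19 (adjusted p = 4.39e-10). Under DMSO it was at 0.725, 0.65 and 1.02 CPM in H1299 and 18.3, 21.9 and 19 CPM in H1703, so the gap widened by 6.07 ± 0.32 (adjusted p of the change = 1.18e-08). SAA2 followed it, with 7, 5 and 4 counts in H1299 and 12385, 17882 and 16535 counts in H1703, and its gap widened by 5.23 ± 0.68 (adjusted p of the change = 4.12e-05). LCN2, an iron-scavenging lipocalin of the innate response, had 0, 4 and 9 counts in H1299 and 2957, 4954 and 3263 counts in H1703. Its difference of 9.76 ± 0.47 (adjusted p = 3.89e-06) rested on few H1299 counts, and without H1299 replicate 3 it was 10.8.

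ALDH1A1, which oxidises retinal and other aldehydes, had 2, 7 and 24 counts in H1299 and 25126, 31088 and 26234 counts in H1703, a difference of 11.34 ± 0.50 (adjusted p = 4.86e-06). Without H1299 replicate 3, the H1299 library with the most ALDH1A1 counts, the difference was 12.6. S100A6, a calcium-binding protein, had 2, 9 and 22 counts in H1299 and 13151, 27269 and 14338 counts in H1703. The lines did not overlap (adjusted p = 3.54e-05), although H1703 replicate 2 stood well above the other H1703 libraries. COL5A1, a chain of fibrillar collagen type V, had 4, 7 and 3 counts in H1299 and 6705, 6986 and 5337 counts in H1703 (adjusted p = 5.12e-10). ELF3, an epithelial ETS transcription factor, had 3, 7 and 12 counts in H1299 and 6198, 7059 and 5213 counts in H1703 (adjusted p = 2.19e-09). TCIM, a small regulator of the WNT pathway, had 5, 7 and 2 counts in H1299 and 2777, 3284 and 2820 counts in H1703 (adjusted p = 5.62e-10). ALDH1A1, COL5A1, ELF3 and TCIM were at 0 in every DMSO-treated H1299 library, and all 4 differences narrowed (adjusted p of the change from 0.00204 for ELF3 to 0.00598 for TCIM).

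Under the same limit the 10 largest differences in favour of H1299 were those of cytoskeletal genes, germline antigens, a calcium entry regulator, a synaptic membrane protein and 1 long intergenic RNA. FLNC, a filamin that cross-links actin, was at 2068, 2696 and 2233 CPM in H1299 and 10.3, 9.94 and 10.8 CPM in H1703, a difference of -7.81 ± 0.15 (adjusted p = 4.4e-10). The DMSO levels were 752 ± 30.8 CPM in H1299 and 10.2 ± 0.0775 CPM in H1703, and the gap widened by 1.60 on the log2 scale (adjusted p of the change = 9.4e-07). CLIP3, a microtubule- and membrane-binding linker protein, was at 224, 248 and 226 CPM in H1299 and 2.46, 2.56 and 2.83 CPM in H1703. CRACR2B, a regulator of store-operated calcium entry, was at 118, 140.4 and 141 CPM in H1299 and 2.27, 2.15 and 1.97 CPM in H1703. No H1703 library came near an H1299 library for either gene, and both gaps had widened from DMSO (adjusted p of the change = 1.13e-06 and 3.24e-07). CLSTN3, a calsyntenin of synaptic membranes, showed no called difference under DMSO, where it was at 23.1 ± 3.64 CPM in H1299 and 26.7 ± 3.26 CPM in H1703. Under SAHA it was at 163, 194 and 161 CPM in H1299 and 2.27, 3.31 and 2.5 CPM in H1703, an opened difference of -5.99 ± 0.17 (adjusted p = 1.62e-09). LINC00665, a long intergenic RNA of chromosome 19, was at 118, 122 and 124 CPM in H1299 and 1.86, 1.69 and 2.69 CPM in H1703 (adjusted p = 1.75e-09).

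**Figure D2:**
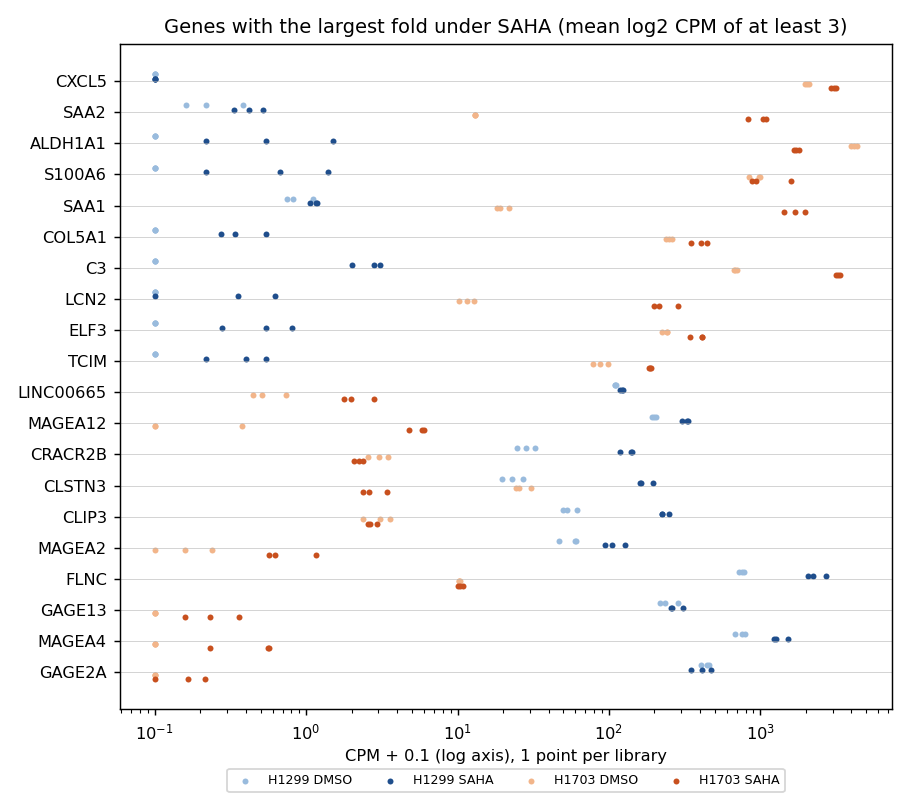
Levels in all 12 libraries of the 10 genes with the largest fold in each direction under SAHA where log2 CPM averaged at least 3 over the 6 SAHA libraries, as CPM + 0.1 on a log axis, 1 point per library, with light points for DMSO and dark points for SAHA. For all 20 genes the dark points of the lines do not overlap, and for CLSTN3 the DMSO points of the lines lie together.

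Some genes were on in one line and off in the other under SAHA, defined as at least 5 CPM in each library of one line and at most 3 counts in each library of the other. There were 107 genes on in H1703 alone, 90 of them protein-coding, and 86 on in H1299 alone, 58 protein-coding. The same on-off state was present under DMSO for 62 and 61 of these. Under DMSO itself the state held for 268 genes on in H1703 alone and 151 on in H1299 alone. Of the 268, 160 had over 3 counts in at least 1 SAHA-treated H1299 library, but only 5 reached 5 CPM in all 3: LZTS1, PADI2, TMEM92, TP53I11 and LBH. LBH, a transcriptional cofactor of limb and heart development, went from 0, 0 and 0 counts to 11.8, 13.7 and 11.8 CPM in H1299, against 53, 65 and 52.8 CPM in H1703. TP53I11 went from 1, 3 and 0 counts to 28.7, 16.6 and 32.5 CPM in H1299, against 81.2, 91.7 and 107 CPM in H1703, and its transcription unit overlaps TSPAN18. Of the 151, 66 had over 3 counts in a SAHA-treated H1703 library and 1, AMOT, reached 5 CPM in all 3, with 117, 97 and 126 counts. Those 6 genes were picked because they are all that met this description.

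CXCL5, a neutrophil-attracting chemokine of chromosome 4, was the most abundant of the genes on in H1703 alone, with 0, 0 and 0 counts in H1299 and 45965, 53983 and 44603 counts in H1703. That is at least 16739-fold higher, taking 3 counts per library as the floor of the silent line. SIK1 and SIK1B, near-identical copies of a salt-inducible kinase on chromosome 21 that share reads, had 1797, 1923 and 1533 and 2295, 2475 and 2016 counts in H1703 and none in any of the H1299 libraries. TXNIP, the thioredoxin-interacting protein that curbs glucose uptake, had 0, 1 and 3 counts in H1299 and 4475, 5496 and 5022 counts in H1703 under SAHA. Under DMSO it had 0, 0 and 0 counts in H1299 and 94, 77 and 30 counts in H1703, so the high level was present in H1703 under SAHA alone; the change of the difference was not called (adjusted p = 0.919). EREG, an EGF-family growth factor, had 0, 1 and 0 counts in H1299 and 2839, 3048 and 3366 counts in H1703. HPGD, which inactivates prostaglandins, had 0, 1 and 0 counts in H1299 and 1962, 2229 and 2370 counts in H1703. OLR1, a scavenger receptor for oxidised lipoprotein, had 2, 0 and 0 counts in H1299 and 1462, 1707 and 1388 counts in H1703. All of these on-off genes were separated without overlap by their definition. THY1, a membrane glycoprotein of mesenchymal and neural cells, had 1013, 1436 and 1147 counts in H1703 and none in H1299, at least 415-fold higher. CDH1, which encodes E-cadherin, had 2, 3 and 3 counts in H1299 and 441, 580 and 505 counts in H1703.

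Genes off in both lines under DMSO and on in H1703 alone under SAHA numbered 8, and in H1299 the 1 such gene was the pseudogene OR7E19P. Examples, named after their values were seen, were CXCL6, a chemokine beside CXCL5, at 106, 132 and 163 counts in H1703, STEAP4, a metalloreductase, at 100, 125 and 157 counts, and the long RNA UCA1 at 375, 331 and 454 counts. H1299 had at most 2 counts of each in any SAHA library.

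On the H1299 side, TRIM58, a ubiquitin ligase gene of chromosome 1, had 2151, 2121 and 2105 counts in H1299 and none in H1703, at least 676-fold higher in H1299. CDKN2A and CDKN2B, the p16 and p15 CDK inhibitors on 9p21 (GRCh38 chromosome 9, 21967753 to 22009363), formed a run of silent genes. CDKN2A had 1798, 3352 and 3960 counts and CDKN2B 2441, 2257 and 2095 counts in H1299. Neither had a count in any H1703 library with either treatment. They were at least 967-fold and 721-fold higher in H1299. Of 14 tested genes of 9p21, 7 were higher and 6 lower in H1703. The adjoining MTAP was at 38.5, 42.8 and 77 CPM in H1299 and 12.9, 26.1 and 20.1 CPM in H1703, a difference of -1.41 ± 0.36 (adjusted p = 0.0146) that was not called without H1703 replicate 3 (adjusted p = 0.0707) or with no filter on low counts (0.0687). Further along the arm, KLHL9 (1.20 ± 0.14) and MLLT3 (1.71 ± 0.15) were higher in H1703.

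Cancer-testis antigens, germline genes that many tumours express from chromosome X, were mostly an H1299 feature. Of 25 tested members 18 were lower in H1703 and 5 higher, with a median of -2.94 beside -0.03 over all genes. MAGEA4 had 20494, 19938 and 26122 counts in H1299 and 2, 8 and 7 counts in H1703, and GAGE2A had 5845, 6456 and 8035 counts in H1299 and 1, 2 and 0 counts in H1703. CTAG1B, which encodes the NY-ESO-1 antigen, had 3709, 3554 and 4656 counts in H1299 and 0, 0 and 2 counts in H1703. Members of the GAGE family are near-identical copies, so the split of reads among them is uncertain. MAGEA12 showed the partial gain in H1703, from 0, 0 and 4 counts under DMSO to 88, 81 and 87 counts under SAHA, against 5085, 5157 and 5720 in H1299. Its gap narrowed (adjusted p of the change = 1.99e-06), and so did that of MAGEA4 (0.0049), which had no H1703 count under DMSO. MAGEC2 was one of the 5 that were higher in H1703, at 1.55, 1.52 and 1.41 CPM in H1299 and 17.4, 17.2 and 16.4 CPM in H1703. Over the 18 members tested with both treatments the median was -8.61 under DMSO and -6.32 under SAHA. SALL3, a developmental zinc finger gene, and the homeobox copies RHOXF2 and RHOXF2B, expressed in germ cells, were also on in H1299 alone. SALL3 had 1674, 1413 and 2714 counts there, and RHOXF2B had 1536, 1462 and 1851.

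Zinc finger (ZNF) genes of chromosome 19, clustered repressors that bind repeats and imprinted regions, were drawn into the comparison after the on-off genes had been seen. Chromosome 19 held 26 of the 86 genes on in H1299 alone and 6 of the 107 on in H1703 alone. Of 224 tested ZNF genes of the chromosome, 140 (62.5%) were lower in H1703, 23 were higher and 61 were not called. Their median was -1.26 under SAHA and -0.91 under DMSO, while that of the other 898 protein-coding genes of the chromosome was -0.079. The difference was kept without a called change for 98, widened for 17, narrowed for 21, opened for 10, closed for 9 and reversed for 1. ZNF667, named after its values were seen, had 158, 134 and 131 counts in H1299 and none in H1703, and the imprinted gene PEG3 on the same arm had 351, 246 and 291 counts in H1299 and 0, 2 and 2 counts in H1703. On the H1703 side, SNURF, an imprinted transcript of chromosome 15, had 311, 261 and 312 counts and none in any of the H1299 libraries. SNURF overlaps SNRPN, and reads of the overlap cannot be assigned to either for certain.

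The promoters of an on-off gene from each side are shown because they differ in CpG content, the sequence on which DNA methylation acts. Both are the 250 bases before the transcription start from RefSeq on GRCh38.p14, read 5′ to 3′ on the gene's strand, with every CpG in capitals. TRIM58 lies at chr1:247856937-247857186 (plus strand) and LDOC1, an H1703 gene that encodes a small nuclear protein, at chrX:141177130-141177379 (minus strand).
TRIM58: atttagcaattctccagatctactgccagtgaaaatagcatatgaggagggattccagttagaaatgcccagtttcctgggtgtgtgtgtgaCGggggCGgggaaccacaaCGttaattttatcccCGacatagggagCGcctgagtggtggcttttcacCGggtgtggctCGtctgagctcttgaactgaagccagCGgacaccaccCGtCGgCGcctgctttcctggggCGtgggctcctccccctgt
LDOC1: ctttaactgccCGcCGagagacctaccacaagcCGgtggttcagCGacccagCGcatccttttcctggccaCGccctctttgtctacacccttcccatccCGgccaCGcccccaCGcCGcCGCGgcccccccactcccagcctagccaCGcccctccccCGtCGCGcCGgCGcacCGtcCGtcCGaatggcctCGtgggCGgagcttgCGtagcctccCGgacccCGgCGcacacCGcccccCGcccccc
The TRIM58 window holds 12 CpG at 56% G+C, and the LDOC1 window 29 CpG at 73.2% G+C. Their observed-to-expected CpG ratios are 0.615 and 1.01. LDOC1 had 0, 0 and 3 counts in H1299 and 1952, 2562 and 2183 counts in H1703, and TRIM58 the reverse, as given before. Over all on-off genes CpG-rich promoters were less common than in the background. Here CpG-rich means an observed-to-expected CpG ratio of at least 0.6 and at least 50% G+C from 250 bases before to 50 after the start. Over their 250 bases the TRIM58 and LDOC1 windows both reach these limits. CpG-rich promoters made up 37 of 90 (41.11%) on in H1703 alone and 28 of 58 (48.28%) on in H1299 alone, against 67.55% of all protein-coding genes tested. Among genes called with at least 16-fold the share was 39.63%, among genes that narrowed 60.64% and among those that widened 74.74%. These shares are descriptions, and DNA methylation was not measured.

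Inflammatory cytokines and chemokines had the largest positive median of the lists. Of 29 tested members 25 were higher in H1703 and 2 lower, with a median of 5.07 (4.96 with members absent from a line set at their lower bound). Over the 27 tested with both treatments the median was 5.80 under DMSO and 4.96 under SAHA, with 12 narrowed and 3 widened. CCL20, which attracts CCR6-bearing lymphocytes, had 7, 16 and 11 counts in H1299 and 4098, 4569 and 4021 counts in H1703, a difference of 8.59 ± 0.20 (adjusted p = 5.54e-10). Its H1703 level was 19.2 ± 0.726 CPM under DMSO and 268 ± 4.7 CPM under SAHA. The change of the line difference was nonetheless negative and not called (-2.7, adjusted p = 0.0712). It was called without H1299 SAHA replicate 1 (0.0494). The other members given here were chosen after their values were seen. IL6, the inducer of the acute phase response, had 2, 2 and 2 counts in H1299 and 710, 772 and 573 counts in H1703. It had been higher in H1703 under DMSO as well, with 0, 0 and 0 counts in H1299 and 817, 787 and 822 counts in H1703. The gap narrowed (adjusted p of the change = 0.00881), but this rested on very few H1299 counts. The neutrophil chemokine CXCL8 was at 1.67, 3.3 and 2.93 CPM in H1299 and 608, 649 and 553 CPM in H1703. The NF-kB inhibitor gene NFKBIA, itself an NF-kB target, was at 11.7, 11.5 and 13.3 CPM in H1299 and 113, 99.5 and 99.4 CPM in H1703 and its gap had widened (adjusted p of the change = 0.000648). RELB, an NF-kB subunit, was one of the 2 that were lower in H1703, at 129, 100.5 and 134 CPM in H1299 and 106, 79.4 and 67.9 CPM in H1703. The lines overlapped, and the difference of -0.52 ± 0.18 (adjusted p = 0.0275) was not called when any of 4 libraries was left out: H1299 replicate 1 (0.0869) or 3 (0.0891), or H1703 replicate 2 (0.0906) or 3 (0.0828).

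The promoters of 3 of these genes are shown for a shared sequence. Each is 250 bases before the start (RefSeq, GRCh38.p14), 5′ to 3′ on the gene's strand, with the match to an NF-kB consensus in capitals: GGG, any 2 bases, then TTTCC, on either strand. No other motif was searched. CXCL5 lies at chr4:73998678-73998927 (minus strand), IL6 at chr7:22726950-22727199 (plus strand) and CCL20 at chr2:227813592-227813841 (plus strand).
CXCL5: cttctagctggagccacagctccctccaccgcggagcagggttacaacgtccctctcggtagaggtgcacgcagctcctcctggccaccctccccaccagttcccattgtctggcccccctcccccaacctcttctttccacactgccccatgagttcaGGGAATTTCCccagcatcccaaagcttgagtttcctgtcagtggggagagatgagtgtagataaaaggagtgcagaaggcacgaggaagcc
IL6: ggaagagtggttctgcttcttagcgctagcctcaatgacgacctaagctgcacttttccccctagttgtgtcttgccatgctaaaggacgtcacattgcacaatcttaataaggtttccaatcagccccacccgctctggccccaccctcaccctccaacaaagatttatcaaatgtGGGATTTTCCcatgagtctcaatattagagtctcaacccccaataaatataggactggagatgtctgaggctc
CCL20: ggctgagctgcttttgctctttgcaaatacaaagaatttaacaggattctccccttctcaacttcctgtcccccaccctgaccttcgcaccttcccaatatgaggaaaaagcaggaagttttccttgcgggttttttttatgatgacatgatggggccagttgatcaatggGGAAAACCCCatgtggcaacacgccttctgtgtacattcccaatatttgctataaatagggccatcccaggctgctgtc
In windows of the same length from the GENCODE annotation, the consensus was found for 8 of 29 tested members of the list (27.6%): CXCL1, CXCL2, CXCL5, CXCL6, NFKB1, NFKBIA, RELB and TNFAIP3. Of the 25 members called higher in H1703 it was found for 5 (20%), while CXCL2, NFKB1 and RELB hold it and were not called higher. IL6 and CCL20 match in the RefSeq windows only, since the annotated starts differ. Among all 14707 tested protein-coding genes with a window 280 (1.9%) held it, with 1.86% of those higher in H1703 and 2% of those lower. Of 27305 RefSeq windows, 578 (2.12%) did. A match is a description of the letters and not a bound site.

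S100A9, a subunit of calprotectin, had 0, 0 and 4 counts in H1299 and 1376, 1812 and 1240 counts in H1703, while H1703 under DMSO had 5, 5 and 2. The change of its line difference was not called (adjusted p = 0.957), though it was with DESeq2 (0.000544). CD14, the co-receptor for bacterial lipopolysaccharide, had 2, 5 and 5 counts in H1299 and 601, 383 and 555 counts in H1703. Both sit among the myeloid markers whose sum was higher in H1703, while the defining myeloid marker TYROBP was at 0, 0 and 2 counts there. GDF15, a stress-induced TGF-beta relative, was at 3.94, 5.27 and 4.45 CPM in H1299 and 476, 482 and 395 CPM in H1703 (difference 6.63 ± 0.16, adjusted p = 5.54e-10), with no called change from DMSO. ICAM1, a leukocyte adhesion molecule, was at 11.7, 13.5 and 14.4 CPM in H1299 and 296, 239.6 and 239 CPM in H1703, and its gap widened by 2.31 ± 0.15 (adjusted p of the change = 7.04e-08).

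Redox enzymes of the NRF2 programme and the aldo-keto reductases were higher in H1703 for 21 of 26 tested members and lower for 4, with a median of 1.47, and 16 of the differences had narrowed from a DMSO median of 2.64. AKR1B10, which reduces retinal and lipid aldehydes, was the extreme case of narrowing. It was at 0.117 ± 0.102 CPM in H1299 and 1249 ± 47.3 CPM in H1703 under DMSO, and at 4.42, 4.45 and 5.33 CPM in H1299 and 38.2, 51.6 and 40.8 CPM in H1703 under SAHA. The H1703 level was thus lower and the H1299 level higher under SAHA. The gap narrowed (adjusted p of the change = 2.74e-10) and was still 3.21 ± 0.16 (adjusted p = 8.17e-08). AKR1B1, the related aldose reductase, named after its values were seen, kept its difference, at 189, 198 and 266 CPM in H1299 and 10180, 10650 and 10570 CPM in H1703. AKR1C2, a steroid-reducing member also chosen that way, was at 1.55, 1.65 and 2.28 CPM in H1299 and 899, 964 and 877 CPM in H1703. ALDH3A1 had 0, 0 and 2 counts in H1299 and 672, 795 and 574 counts in H1703. OSGIN1, an oxidative stress growth inhibitor, was lower in H1703 (-1.44 ± 0.11, adjusted p = 1.33e-06). CBR3 was at 4.6, 8.26 and 8.32 CPM in H1299 and 3.86, 5.58 and 3.62 CPM in H1703 (adjusted p = 0.0401), and was not called when any of 4 libraries was left out: H1299 replicate 2 (0.134) or 3 (0.143), or H1703 replicate 1 (0.129) or 3 (0.135).

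Genes that handle drugs differed likewise, with 13 of 15 tested members higher in H1703 and 2 lower, and a median of 1.76. CYP24A1, which degrades active vitamin D, was at 1.02, 1.65 and 0.878 CPM in H1299 and 684, 727 and 626 CPM in H1703 (difference 9.17 ± 0.20, adjusted p = 5.24e-10). CYP1B1, a xenobiotic and estrogen hydroxylase, was at 4.84, 3.56 and 3.34 CPM in H1299 and 139, 135 and 140.3 CPM in H1703, and its gap widened by 2.65 ± 0.16 (adjusted p of the change = 2.75e-08). Under DMSO it had been at 25.6 ± 0.896 CPM in H1299 and 143 ± 9.54 CPM in H1703. The drug efflux pump gene ABCB1 was the larger of the 2 exceptions, at 53.2, 50.2 and 46.3 CPM in H1299 and 16.4, 15.1 and 19.1 CPM in H1703. Under DMSO it had been at 19.5 ± 0.487 CPM in H1299 and 0.586 ± 0.153 CPM in H1703, below the SAHA level of the same line in both. SAHA is inactivated by glucuronidation, and of the enzymes involved UGT2B17 had 3, 7 and 2 counts in H1299 and 0, 0 and 1 counts in H1703. UGT1A9 had 0, 0 and 0 counts in H1299 and 17, 5 and 6 counts in H1703. Both were too few to test between the lines under SAHA. Metallothioneins, metal-binding proteins, were split: MT1F had 2, 2 and 1 counts in H1299 and 507, 677 and 520 counts in H1703, while MT1X was at 365, 421 and 440.3 CPM in H1299 and 187, 245 and 205 CPM in H1703. Of 6 tested members 4 were higher in H1703 and 1 lower.

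Epithelial genes were divided between the lines. Of 26 tested junction and keratin genes 13 were higher in H1703 and 6 lower, with a median of 0.73. KRT19, a simple-epithelium keratin, had 10, 10 and 23 counts in H1299 and 4726, 5808 and 4175 counts in H1703, and KRT7 was at 5.79, 5.27 and 6.5 CPM in H1299 and 628, 687 and 526 CPM in H1703. EPCAM had 3, 5 and 0 counts in H1299 and 28, 50 and 26 counts in H1703. The keratin gene KRT80, at 354, 395 and 416 CPM in H1299 and 85.1, 79.9 and 71.6 CPM in H1703, was higher in H1299. KRT80 had been higher in H1703 under DMSO (161 ± 3.2 CPM in H1299 and 222 ± 8.84 CPM in H1703) and its order reversed (change -2.76 ± 0.12, adjusted p = 2.59e-09).

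Mesenchymal genes were divided too, with 14 of 26 tested members higher in H1703 and 9 lower, and a median of 0.69. S100A4, a motility-associated calcium-binding protein, was at 9.26, 9.72 and 9.9 CPM in H1299 and 149, 168 and 135 CPM in H1703. CDH2, which encodes N-cadherin, was at 115 ± 13.4 CPM in H1299 and 172 ± 15.2 CPM in H1703 (difference 0.59 ± 0.12, adjusted p = 0.00113). VIM, the mesenchymal intermediate filament, was lower in H1703, at 1892 ± 214 CPM in H1299 and 961 ± 16.2 CPM in H1703 (difference -0.97 ± 0.10, adjusted p = 1.21e-05), and so were the matrix protease gene MMP14 (33, 32.6 and 26.9 CPM in H1299 and 0.666, 1.34 and 1.05 CPM in H1703) and the collagen cross-linking enzyme gene LOX (-2.72 ± 0.15). H1703 thus had more of both cadherin transcripts, E-cadherin and N-cadherin, under SAHA.

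Matrix and adhesion genes leaned to H1703. Of 24 tested collagens 16 were higher and 4 lower (median 1.06), and of 30 integrin and laminin genes 23 were higher and 4 lower (median 1.40). COL4A2, a basement membrane collagen chain, had 9, 14 and 11 counts in H1299 and 5635, 6151 and 4113 counts in H1703, and the gap had narrowed. LAMA1, a laminin chain of early basement membranes, was near 0 in both lines under DMSO, with 3, 1 and 0 counts in H1299 and 1, 0 and 0 counts in H1703. Under SAHA it had 9, 13 and 13 counts in H1299 and 594, 609 and 588 counts in H1703, so the lines no longer overlapped (adjusted p of the change = 0.000504, or 0.051 without H1299 DMSO replicate 1). COL1A1, the main fibrillar collagen chain, narrowed from 5.55 to 0.76 ± 0.14 (adjusted p = 0.00073), at 35.9, 46 and 33 CPM in H1299 and 68.6, 67.4 and 58.5 CPM in H1703. Under DMSO it had been at 1.35 ± 0.451 CPM in H1299 and 63.5 ± 4.8 CPM in H1703. LUM, a keratan sulphate proteoglycan of the fibroblast marker list, had 0, 1 and 1 counts in H1299 and 695, 959 and 793 counts in H1703. The sum of the 7 fibroblast markers lay between 66.8 and 78.1 CPM in H1299 and between 153.5 and 167.4 CPM in H1703, mostly COL1A1 and LUM. ITGA6, an integrin chain, and LAMA2 were the called members of greatest fold on the H1299 side, with differences of -0.85 ± 0.093 and -2.64 ± 0.20.

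Of 56 tested lineage and developmental factors 18 were higher in H1703 and 28 lower, with a median of -0.41. FOXA2, a pioneer factor of endoderm, had 0, 0 and 2 counts in H1299 and 559, 641 and 536 counts in H1703. Of 12 tested adenocarcinoma markers 10 were higher in H1703 and 1 lower, with a median of 2.68. The exception was the lung lineage factor NKX2-1, with 45, 43 and 48 counts in H1299 and 10, 11 and 11 counts in H1703 (difference -2.01 ± 0.27, adjusted p = 7.92e-05). Squamous markers were called for 9 of 15 tested (60%, beside 66.8% of all genes tested), 7 higher in H1703 and 2 lower. Their median was 0.25, and its sign changed under an alternative. SOX2, amplified in many squamous carcinomas, closed: it was at 6.03 ± 0.748 CPM in H1299 and 40 ± 2.23 CPM in H1703 under DMSO and at 4.12, 5.08 and 6.33 CPM in H1299 and 5.59, 6.1 and 4.08 CPM in H1703 under SAHA (difference 0.031 ± 0.22, adjusted p = 0.91; change -2.70 ± 0.25, adjusted p = 1.87e-06). FOXD1, a forkhead factor of kidney stroma, was at 298, 314 and 325 CPM in H1299 and 27.2, 25.4 and 20 CPM in H1703, and the homeobox gene DLX2 had a difference of -3.00 ± 0.32. Of 31 tested HOX genes 6 were higher and 16 lower in H1703 (median -0.93). HOXB4 had 866, 924 and 1044 counts in H1299 and 3, 8 and 2 counts in H1703 and HOXB2 had 1138, 1104 and 1321 counts in H1299 and 11, 14 and 8 counts in H1703, while HOXB13 of the same cluster was higher in H1703, at 10.9, 10.3 and 11.7 CPM in H1299 and 31.7, 36.8 and 33.2 CPM in H1703.

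Receptors and ligands of the ERBB, MET and AXL families leaned to H1703, with 18 of 33 tested members higher and 6 lower (median 0.52). EGFR was at 90.8, 82.2 and 70.8 CPM in H1299 and 567, 473 and 596 CPM in H1703, a difference of 2.75 ± 0.13 (adjusted p = 5.82e-08), and MET, the hepatocyte growth factor receptor, at 122, 105 and 106 CPM in H1299 and 305, 298 and 339 CPM in H1703 (difference 1.50 ± 0.11, adjusted p = 7.92e-07). Both gaps had widened from DMSO (adjusted p of the change = 0.000357 and 2.13e-05). NTRK3, a neurotrophin receptor, narrowed: it had been at 0 ± 0 CPM in H1299 and 242 ± 10.7 CPM in H1703, and under SAHA was at 1.49, 1.65 and 1.23 CPM in H1299 and 43.4, 41.4 and 40.9 CPM in H1703. AXL, a receptor tied to drug tolerance, was lower in H1703, at 270.4, 325 and 319 CPM in H1299 and 117, 119 and 118 CPM in H1703 (difference -1.36 ± 0.10, adjusted p = 8.7e-07), and its gap had narrowed from -2.52. MERTK of the same family was also lower (-1.31 ± 0.13).

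The PDGF and FGF list was balanced, 9 higher and 10 lower of 22 tested. FGFR1, a receptor gene of 8p11 that is amplified in some squamous carcinomas, was at 96.4, 126 and 89.9 CPM in H1299 and 90.5, 102 and 102 CPM in H1703 and the lines overlapped (adjusted p = 0.606). PDGFRA closed. Under DMSO it had 0, 3 and 1 counts in H1299 and 32, 40 and 31 counts in H1703, and under SAHA the lines overlapped as given at the outset (change -4.81 ± 0.66, adjusted p = 7.14e-05). KIT, its neighbour on 4q12, had 11, 18 and 9 counts in H1299 and 33, 11 and 24 counts in H1703 and was not called (adjusted p = 0.117), but was called without H1703 replicate 2 (0.0194). The growth factor gene PDGFB opened towards H1299, at 33.6, 36.8 and 36.2 CPM in H1299 and 4.33, 5.7 and 3.88 CPM in H1703 (difference -2.93 ± 0.16, adjusted p = 1.48e-07). FGF5 was kept lower in H1703, at 47.2, 45.7 and 45 CPM in H1299 and 2.46, 2.44 and 3.09 CPM in H1703. In the insulin-like growth factor axis 9 of 13 tested members were higher in H1703. IGFBP4, which binds and restrains IGF, was at 20.9, 23.2 and 24.4 CPM in H1299 and 2431, 2602 and 2145 CPM in H1703, with a difference of 6.72 ± 0.13 and a change near 0 (0.012 ± 0.14). The mRNA-binding proteins IGF2BP1 (-2.25 ± 0.12) and IGF2BP2 (-2.20 ± 0.10) were lower, and IGF2 itself did not pass the test (adjusted p = 0.746).

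Signalling targets varied. Of 26 YAP and AP-1 genes 5 were higher and 13 lower in H1703 (median -0.54). ANKRD1, a YAP target, was at 2178, 1958 and 2349 CPM in H1299 and 63.5, 54.6 and 55.2 CPM in H1703, a gap that widened by 2.11 on the log2 scale (adjusted p of the change = 8.41e-08). FOSL1 and FOSL2, subunits of AP-1, were opposed: FOSL1 was at 36.6 ± 4.87 CPM in H1299 and 8.28 ± 1.95 CPM in H1703 and FOSL2 at 108 ± 16.4 CPM in H1299 and 309 ± 26.9 CPM in H1703. Of 40 WNT pathway genes 19 were higher and 11 lower. The ligand gene WNT7B was at 11.1, 15.4 and 13.3 CPM in H1299 and 319.5, 332 and 289 CPM in H1703, and LEF1, a nuclear effector of the pathway, was lower in H1703 (-3.39 ± 0.25, adjusted p = 1.09e-06). Notch genes were lower for 11 of 21 and higher for 4. NOTCH3 reversed, from 13.8 ± 1.58 CPM in H1299 and 45.5 ± 3.79 CPM in H1703 under DMSO to 111 ± 16.5 CPM in H1299 and 50 ± 3.11 CPM in H1703 under SAHA (change -2.87 ± 0.17, adjusted p = 3.01e-08). Of 43 TGF-beta and BMP genes 16 were higher and 12 lower (65.12% called, beside 66.8% of all genes tested).

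Cell division genes were lower in H1703 under SAHA, with wider gaps than under the vehicle. Of 37 tested mitosis genes 36 were lower in H1703 and none was higher, with a median of -2.43. Under DMSO the median was -0.68, with 26 lower and 3 higher. For 24 of them the gap widened, for 7 it opened and for 3 it reversed. NDC80, a kinetochore protein that holds microtubules, was at 57, 39.8 and 54.4 CPM in H1299 and 1.27, 0.988 and 1.25 CPM in H1703, a difference of -5.42 ± 0.21 (adjusted p = 1.17e-08). Its DMSO levels were 172 ± 13.3 CPM in H1299 and 20.2 ± 1.77 CPM in H1703, so the level under SAHA was below that under DMSO in both lines. SPC25 of the same complex had 250, 190 and 253 counts in H1299 and 10, 16 and 7 counts in H1703. CDK1, the mitotic kinase, chosen after its values were seen, was at 93.3, 77.5 and 97 CPM in H1299 and 17, 14.5 and 13.8 CPM in H1703 (change -1.96 ± 0.14, adjusted p = 1.89e-07). AURKB, a kinase of chromosome segregation chosen likewise, opened, from a DMSO difference of -0.079 to -2.61 ± 0.15 (adjusted p = 1.98e-07).

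DNA replication genes were lower in H1703 for 33 of 37 tested and higher for 3, with a median of -1.53 against -0.41 under DMSO, and 20 widened. RRM2, the regulatory subunit of ribonucleotide reductase, was at 69.6, 79 and 82 CPM in H1299 and 7.59, 6.86 and 4.21 CPM in H1703 and CDT1, a replication licensing factor, at 99.6, 115 and 128 CPM in H1299 and 8.33, 8.48 and 7.49 CPM in H1703. The sliding clamp PCNA was an exception, at 94.1, 83.1 and 99.6 CPM in H1299 and 269, 277 and 282 CPM in H1703 (difference 1.58 ± 0.10, adjusted p = 3.46e-07), and DNA ligase LIG1 was another (0.66 ± 0.11). CCNA2, the S- and G2-phase cyclin, was at 72.1, 66.6 and 81.9 CPM in H1299 and 5.06, 4.88 and 4.27 CPM in H1703, where DMSO levels were 233 ± 10.7 CPM in H1299 and 108 ± 5.75 CPM in H1703 (change -2.84 ± 0.14, adjusted p = 5.65e-09).

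G1 regulators were lower in H1703 for 17 of 21 tested and higher for 3, with a median of -0.88. CDKN1A, the p21 CDK inhibitor, was one of the 3, at 350.2, 345 and 389.6 CPM in H1299 and 702, 762 and 720.3 CPM in H1703. Its difference of 1.01 ± 0.092 (adjusted p = 4.85e-06) was smaller than the 1.41 under DMSO, where levels were 83.5 ± 7.75 CPM in H1299 and 222 ± 7.54 CPM in H1703. CDKN1B, the p27 inhibitor, reversed to higher in H1703 (0.48 ± 0.11, adjusted p = 0.003). CCND1, the main D-type cyclin, reversed the other way: it was at 366 ± 14.9 CPM in H1299 and 480.5 ± 8.7 CPM in H1703 under DMSO and at 467, 481 and 448 CPM in H1299 and 275, 287 and 283 CPM in H1703 under SAHA (difference -0.72 ± 0.088, adjusted p = 3.95e-05). CCND2 was at 23.9 ± 2.77 CPM in H1299 and 6.16 ± 1.84 CPM in H1703.

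EDA2R, a receptor of the TNF receptor family, had 6, 7 and 3 counts in H1299 and 173, 205 and 174 counts in H1703. BBC3, which encodes the pro-apoptotic PUMA protein, was at 13.6, 16.5 and 15.3 CPM in H1299 and 93.1, 96.9 and 65.5 CPM in H1703 (difference 2.50 ± 0.17, adjusted p = 4.71e-07). The damage-response genes GADD45A (146, 178 and 156 CPM in H1299 and 30.4, 38.9 and 32.4 CPM in H1703) and SESN1 (-0.92 ± 0.15) were lower in H1703. Among 31 BCL2 family and death receptor genes 14 were higher and 8 lower. BCL2A1 had 3, 4 and 0 counts in H1299 and 389, 509 and 302 counts in H1703, while BCL2 was at 20.1, 18.1 and 15.5 CPM in H1299 and 4.06, 4.47 and 3.02 CPM in H1703 and was lower in H1703 (difference -2.21 ± 0.19, adjusted p = 3.41e-06).

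Deacetylase genes, which include those of SAHA's targets, and sirtuin genes, whose NAD-dependent enzymes SAHA does not inhibit, were divided between the lines. Of 18 such genes 7 were higher and 8 lower in H1703, with a median of -0.15. HDAC1 was at 192, 197 and 213 CPM in H1299 and 107, 109 and 109 CPM in H1703 (difference -0.89 ± 0.089, adjusted p = 9.87e-06) and HDAC2 at 176, 160.5 and 169.9 CPM in H1299 and 87.8, 93.4 and 94.2 CPM in H1703 (-0.87 ± 0.093, adjusted p = 1.57e-05). Both were kept from DMSO with no called change. HDAC7, a class IIa enzyme, had the largest difference of the list, at 113, 142 and 110.3 CPM in H1299 and 28, 29.5 and 22.9 CPM in H1703 (-2.18 ± 0.14, adjusted p = 4.15e-07), and had widened. HDAC3 (0.56 ± 0.17, adjusted p = 0.0147) and HDAC6 (0.39 ± 0.12, adjusted p = 0.0154) were higher in H1703, but the call of HDAC3 was lost without H1703 replicate 3 (0.0553) or H1299 replicate 1 (0.0639), and that of HDAC6 without H1703 replicate 1 (0.0524) or with upper-quartile scaling (0.052).

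Other chromatin genes were mostly lower in H1703: 13 of 23 SWI/SNF subunits against 4 higher, and 13 of 24 DNA methylation and Polycomb genes against 4. DNMT3B, a de novo DNA methyltransferase, was at 19.4, 20.8 and 20.6 CPM in H1299 and 3.6, 3.2 and 2.04 CPM in H1703 (difference -2.77 ± 0.20, adjusted p = 8.99e-07). SMARCB1, a core SWI/SNF subunit, was at 32.1, 40.7 and 47.4 CPM in H1299 and 11.5, 14.3 and 13.1 CPM in H1703. SMARCA4, the remodeller's ATPase, was low in both lines, at 12.6, 11.4 and 12.7 CPM in H1299 and 9.39, 8.78 and 9.07 CPM in H1703, and its difference (-0.42 ± 0.14, adjusted p = 0.0194) was not called with DESeq2 (0.0521), without H1299 replicate 3 (0.0676) or without H1703 replicate 1 (0.0511) or 2 (0.0715). SMARCA2, the alternative ATPase, was at 54.5 ± 2.52 CPM in H1299 and 53.3 ± 8.01 CPM in H1703 and not called (adjusted p = 0.862). Acetyltransferase and BET genes were higher for 2 of 13 and lower for 5. EP300, a histone acetyltransferase, was at 19.7, 23.6 and 18.3 CPM in H1299 and 76.7, 65 and 76.7 CPM in H1703, and the BET reader BRD3 at 73.9, 83.1 and 67.6 CPM in H1299 and 35.5, 35.9 and 35.8 CPM in H1703. The linker histone gene H1F0 was higher in H1703, at 103 ± 4.02 CPM in H1299 and 276 ± 20.6 CPM in H1703.

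Neuroendocrine genes were mostly higher in H1703 under SAHA. Of 16 tested members 13 were higher in H1703 and 3 lower, with a median of 1.96. Over the 10 tested with both treatments the median was -0.16 under DMSO, with 4 higher and 5 lower, and 2.33 under SAHA. CHGA, chromogranin A of secretory granules, was at 2.45, 3.17 and 1.99 CPM in H1299 and 30.4, 34 and 27.7 CPM in H1703 (difference 3.60 ± 0.19, adjusted p = 9.68e-08). The DMSO libraries had 1, 1 and 0 counts in H1299 and 12, 6 and 10 counts in H1703. The change of the CHGA difference was not called (-0.087, adjusted p = 0.865). The synaptic vesicle gene SYP was at 33, 34.2 and 29.5 CPM in H1299 and 186, 198 and 181 CPM in H1703, and its gap widened by 1.11 ± 0.14 (adjusted p of the change = 3.52e-05). HES6, a neurogenic repressor partner, was lower in H1703 (-1.56 ± 0.18).

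Neuronal genes as a list did not favour a line, with 17 of 40 tested higher and 16 lower (82.5% called, beside 66.8% of all genes tested). SYT11, a synaptotagmin, opened towards H1703, at 10.8, 13 and 8.49 CPM in H1299 and 86.2, 83.3 and 102 CPM in H1703 (difference 3.08 ± 0.17, adjusted p = 1.2e-07) against 5.76 ± 1.35 CPM in H1299 and 5.2 ± 1.43 CPM in H1703 under DMSO. STMN2, a neuronal microtubule regulator, had no count in any DMSO library of either line and was at 14.9, 14.9 and 16.9 CPM in H1299 and 3.66, 3.37 and 2.76 CPM in H1703 under SAHA (difference -2.25 ± 0.17, adjusted p = 1.08e-06). The lines thus shared its appearance and differed in its level. L1CAM, a neural adhesion molecule, was at 74.9, 73 and 63.1 CPM in H1299 and 248, 199 and 208 CPM in H1703, and its gap narrowed from 5.68 to 1.64. VGF, a secreted neuropeptide precursor, was at 2549, 3058 and 2427 CPM in H1299 and 515, 498 and 446 CPM in H1703, also narrowed, from -4.88 to -2.46. CPLX2, a complexin that clamps vesicle fusion, had 4, 8 and 33 counts in H1299 and 258, 333 and 263 counts in H1703 and a difference of 4.31 ± 0.54, or 5.59 without H1299 replicate 3. Clustered protocadherins, neural adhesion genes with shared exons, were higher in H1703 for 18 of 32 tested and lower for 5. Their median over the 27 tested with both treatments was -0.87 under DMSO and 0.78 under SAHA, and counts of single members are uncertain because of the shared exons.

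Antigen presentation genes were mostly higher in H1703. Of 11 tested MHC class II genes 10 were higher and 1 lower (median 1.94), although levels were low. HLA-DRA was at 0.956, 1.21 and 0.878 CPM in H1299 and 7.73, 8.13 and 5.98 CPM in H1703, and HLA-DQB1, the exception, at 15.2, 13.8 and 14.1 CPM in H1299 and 1.67, 1.8 and 2.5 CPM in H1703. Of 19 class I genes 14 were higher and 2 lower (median 0.86). HLA-B was at 194, 212 and 200.5 CPM in H1299 and 164, 176 and 164 CPM in H1703. Its small difference of -0.27 ± 0.09 (adjusted p = 0.0228) had narrowed from -2.46. It was not called with the replicate block (0.0675) or with no filter on low counts (0.0571). Nor was it called without H1299 replicate 2 (0.103) or 3 (0.0621) or H1703 replicate 1 (0.118) or 3 (0.0734). Reads of HLA genes can be shared among paralogs.

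Interferon-stimulated genes were higher for 21 of 28 and lower for 3 (median 1.05). GBP2, a guanylate-binding protein, was at 2.87, 2.86 and 2.58 CPM in H1299 and 47, 46 and 44.4 CPM in H1703, OAS1, a double-stranded RNA sensor, at 1.79, 2.67 and 1.64 CPM in H1299 and 14.6, 18.7 and 17.9 CPM in H1703 and ISG15, a ubiquitin-like modifier, at 69.6, 74.4 and 90.5 CPM in H1299 and 38.4, 46.3 and 29.9 CPM in H1703. Of 15 checkpoint and NK ligands 9 were higher and 3 lower. CD274, which encodes PD-L1, was at 9.56, 8 and 9.55 CPM in H1299 and 32.6, 31.3 and 33.1 CPM in H1703 (difference 1.84 ± 0.13, adjusted p = 7.88e-07) with no called change from DMSO, and TNFSF9, the 4-1BB ligand, was at 21, 23.6 and 20.9 CPM in H1299 and 564, 556 and 461 CPM in H1703. The NKG2D ligand genes MICB (-1.03 ± 0.12) and ULBP1 (-1.51 ± 0.16) were higher in H1299.

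**Figure D3:**
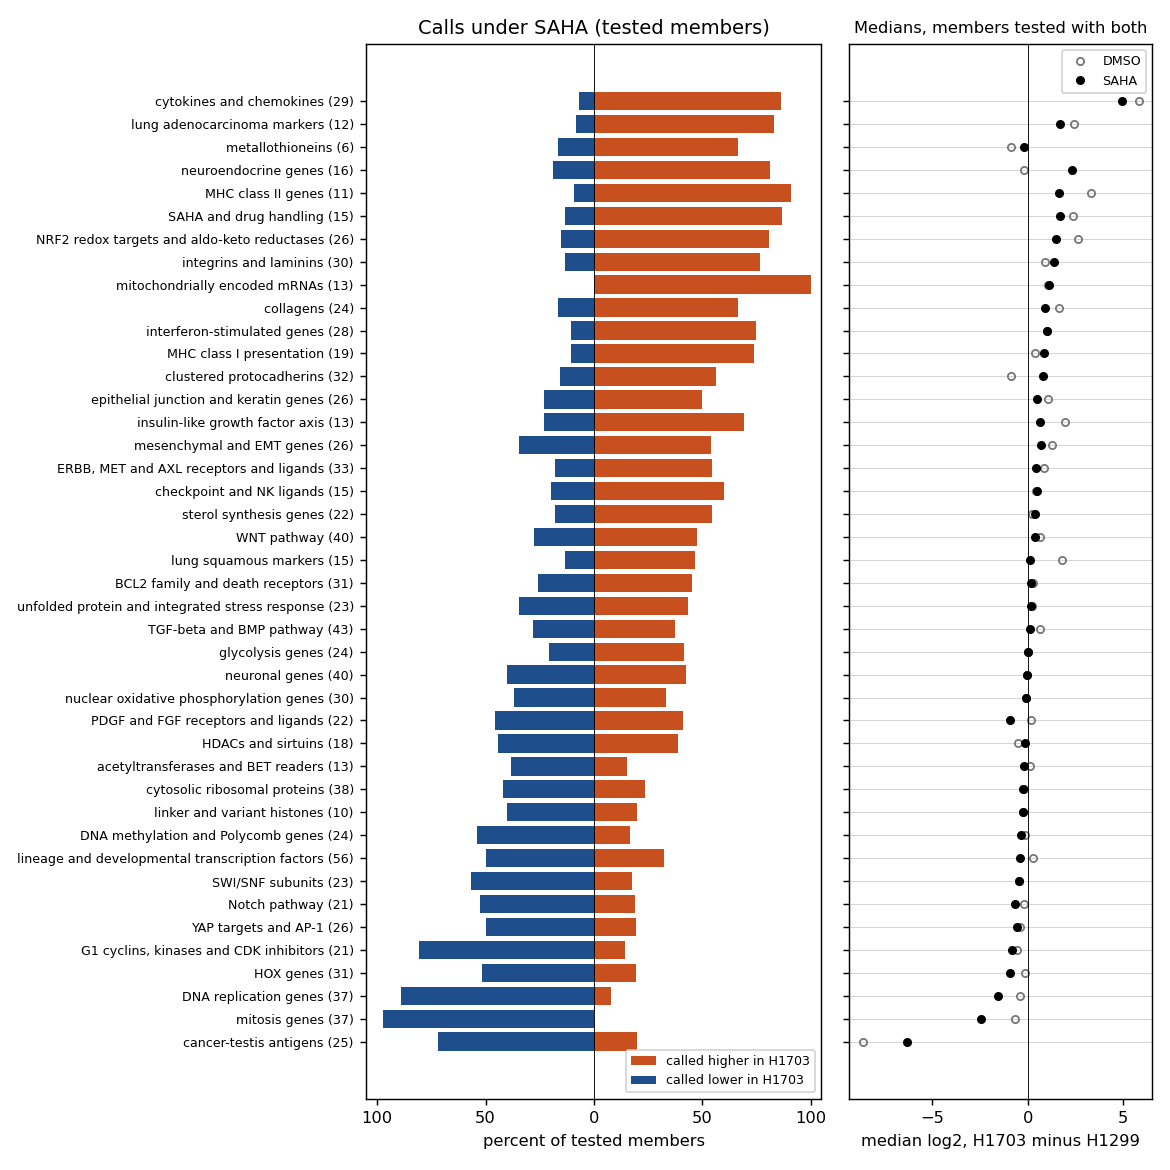
Left, the share of tested members of each gene list shown that was called higher (right bars) or lower (left bars) in H1703 under SAHA, with the number tested in brackets; right, the median line difference (log2, H1703 minus H1299) of members tested with both treatments, open for DMSO and filled for SAHA. Of all genes tested 32.7% were called higher and 34.1% lower, and the mitochondrially encoded mRNAs (13 of 13 higher) and the mitosis genes (36 of 37 lower) lie farthest from an even split.

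Mitochondrially encoded mRNAs were all higher in H1703, 13 of 13, with a median of 1.12 under SAHA and 1.08 under DMSO. MT-CO1 was at 9765, 10170 and 9692 CPM in H1299 and 27510, 25540 and 32880 CPM in H1703. Nuclear genes of oxidative phosphorylation did not share this, with 10 of 30 higher and 11 lower (70% called, beside 66.8% of all genes tested). COX5A was higher (1.12 ± 0.10) and SDHB lower (-1.04 ± 0.10) in H1703. Of 24 glycolysis genes 10 were higher and 5 lower. PKM, pyruvate kinase, was at 1799, 1942 and 2165 CPM in H1299 and 7606, 7318 and 7377 CPM in H1703 and HK2, the first enzyme of the pathway, at 48.1, 49.2 and 48.6 CPM in H1299 and 18.3, 18.4 and 19.9 CPM in H1703, with opposite directions. ALDOC, a brain-type aldolase, had 0, 4 and 3 counts in H1299 and 873, 901 and 799 counts in H1703. Sterol genes were higher for 12 of 22 and lower for 4, with the regulator SREBF1 at 557 ± 78.7 CPM in H1299 and 1175 ± 77.5 CPM in H1703. Ribosomal protein genes were called for 25 of 38 (65.79%, beside 66.8% of all genes tested), 9 higher and 16 lower. Of these 1 reached 2-fold: RPS15, at 274, 275 and 341 CPM in H1299 and 159, 158 and 105 CPM in H1703. In the stress response list 10 of 23 were higher and 8 lower. The chaperone gene DNAJC3 was higher (1.85 ± 0.13) and the stress factor gene DDIT3 lower (-1.98 ± 0.16). ASNS, asparagine synthetase, varied within the lines, at 349.8, 164 and 323 CPM in H1299 and 53.1, 34 and 12.4 CPM in H1703. Its call (adjusted p = 0.0115) was lost with the replicate block (0.0554) or without H1703 replicate 2 (0.056).

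**Figure D4:**
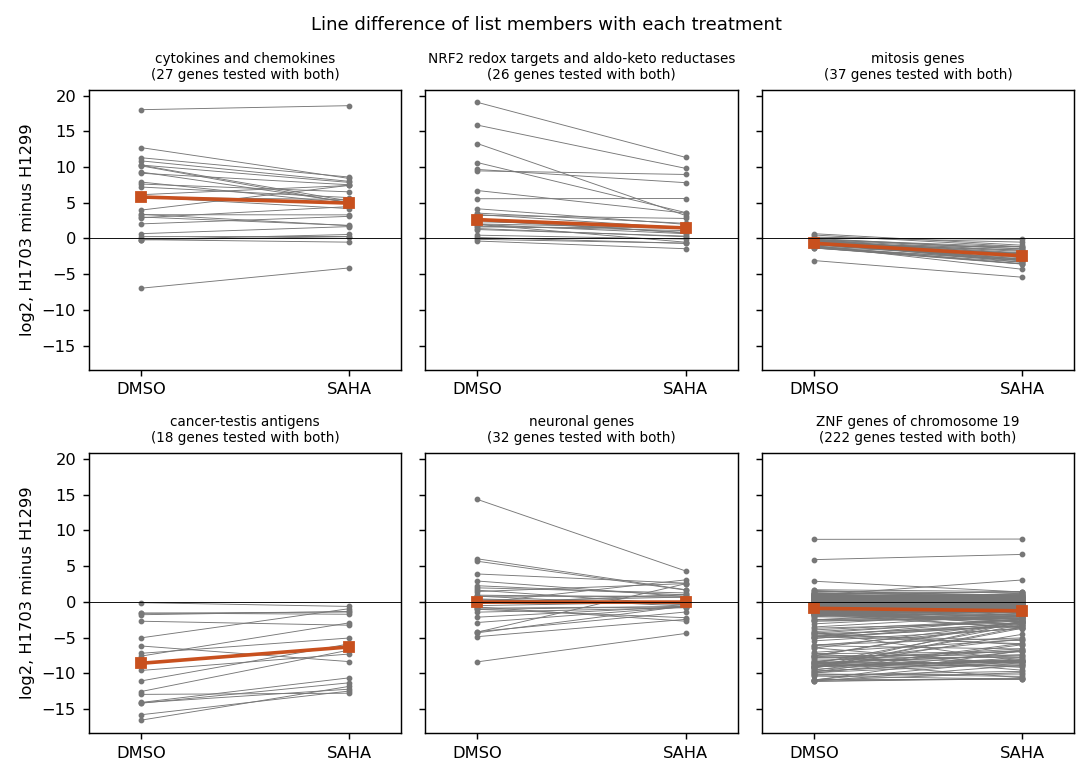
Line difference (log2, H1703 minus H1299) of each member tested with both treatments of 6 gene lists, joined by a line from DMSO to SAHA, with the list median as orange squares. Mitosis genes drop from a median of -0.68 to -2.43, cancer-testis antigens move towards 0 from -8.61 to -6.32, and the ZNF genes of chromosome 19 stay mostly below 0.

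Genes that closed under SAHA had separated the lines under DMSO by up to several log2 units. CACNA1G, a T-type calcium channel gene, was at 1.09 ± 0.231 CPM in H1299 and 52.8 ± 0.456 CPM in H1703 under DMSO and at 57.1, 69.7 and 55 CPM in H1299 and 66.5, 70.7 and 58.6 CPM in H1703 under SAHA (adjusted p = 0.445; change -5.47 ± 0.20, adjusted p = 3.82e-10). The H1299 libraries were then within or near the H1703 range. CEBPA, a differentiation factor, met between the lines, from 5.47 ± 0.712 CPM in H1299 and 42.8 ± 1.69 CPM in H1703 to 20.5 ± 0.652 CPM in H1299 and 19.9 ± 2.66 CPM in H1703 (adjusted p = 0.845). FCGBP, a mucin-like protein, and KRT15, a basal keratin, closed from the H1299 side. FCGBP was at 83.4 ± 1.39 CPM in H1299 and 5.69 ± 0.557 CPM in H1703 under DMSO and at 36.3 ± 5.84 CPM in H1299 and 35.8 ± 3.72 CPM in H1703 under SAHA (adjusted p = 0.932), and KRT15 at 18.7 ± 1.29 CPM in H1299 and 2.23 ± 0.717 CPM in H1703 and then 13.3 ± 1.35 CPM in H1299 and 12.6 ± 0.834 CPM in H1703 (adjusted p = 0.645). TMCC3 did the same (adjusted p = 0.795). An adjusted p above the threshold does not show that levels were equal, and for CXXC5, at 19, 18.5 and 19.3 CPM in H1299 and 40.4, 40 and 15.5 CPM in H1703, the spread within H1703 was wide: it was called without H1703 replicate 3 (adjusted p = 2.87e-05), with DESeq2 (0.0113) and with all 12 libraries in 1 fit (0.0319). TPPP was not called here (adjusted p = 0.105) and was called with upper-quartile scaling (0.0291).

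Opened genes included DNA repair genes that had been level under DMSO. EXO1, an exonuclease of mismatch repair, was at 31.3 ± 1 CPM in H1299 and 33.4 ± 0.469 CPM in H1703 under DMSO and at 27.1, 26.1 and 30.2 CPM in H1299 and 2.73, 3.25 and 3.62 CPM in H1703 under SAHA (difference -3.11 ± 0.16, adjusted p = 7.13e-08). NEIL3, a DNA glycosylase, was at 32.5 ± 3.65 CPM in H1299 and 32.8 ± 0.941 CPM in H1703 and then at 12.8, 10.8 and 11.7 CPM in H1299 and 1.53, 1.8 and 0.789 CPM in H1703 (-3.08 ± 0.26, adjusted p = 2.56e-06). In the opposite direction, SLC17A7, a vesicular glutamate transporter, was at 2.22 ± 0.335 CPM in H1299 and 2.23 ± 0.907 CPM in H1703 and then at 32.4, 33 and 33.5 CPM in H1299 and 133, 134 and 137 CPM in H1703 (2.04 ± 0.093, adjusted p = 3.59e-08). SRD5A3, a steroid and polyprenol reductase, also opened towards H1703 (1.71 ± 0.10, adjusted p = 2.75e-07), as did MXRA7 (1.35 ± 0.18, adjusted p = 0.000155).

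Reversed genes changed the order of the lines. TFPI2, an inhibitor of matrix-degrading serine proteases, was at 72.8, 70.4 and 73.6 CPM in H1299 and 43.7, 47.1 and 49.2 CPM in H1703 under DMSO and at 174, 183 and 181 CPM in H1299 and 2492, 2477 and 2656 CPM in H1703 under SAHA. It had been slightly higher in H1299 (-0.63 ± 0.066) and became 14.2-fold higher in H1703 (3.83 ± 0.10, adjusted p = 8.28e-10). CD59, which shields cells from complement, went from 282 ± 5.63 CPM in H1299 and 124 ± 48 CPM in H1703 to 69.8 ± 5.63 CPM in H1299 and 401 ± 59 CPM in H1703. NLRP1, an inflammasome sensor, went from 54 ± 4.25 CPM in H1299 and 12.4 ± 1.41 CPM in H1703 to 40.7 ± 1.98 CPM in H1299 and 175 ± 22 CPM in H1703. Towards H1299, SAMD11, a sterile alpha motif gene, went from 10.1 ± 1.22 CPM in H1299 and 68.2 ± 0.934 CPM in H1703 to 39.1 ± 2.87 CPM in H1299 and 8.75 ± 2.48 CPM in H1703, and PRICKLE1, a planar polarity gene, from 9.68 ± 1.1 CPM in H1299 and 35.1 ± 6.05 CPM in H1703 to 43.5 ± 2.6 CPM in H1299 and 13 ± 2.17 CPM in H1703. The imprinted long RNA H19 had 0, 0 and 0 counts in H1299 and 23, 14 and 17 counts in H1703 under DMSO and 19, 15 and 18 counts in H1299 and 2, 3 and 1 counts in H1703 under SAHA, a reversal at low counts (adjusted p of the change = 5.69e-06).

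The line difference also varied by chromosome, and the chromosomes with the largest medians kept their sign from DMSO to SAHA. Over protein-coding genes tested with both treatments the median was highest on chromosomes 15 (0.64 under SAHA, 0.56 under DMSO) and 17 (0.58 and 0.63), followed by 10 (0.31 and 0.34). It was lowest on chromosome 6 (-0.47 and -0.55), followed by 8 (-0.38 and -0.28). On chromosome 17, 57.05% of tested genes were higher in H1703 and 16.12% lower, and on chromosome 6 the shares were 20.73% and 53.37%. DNA copy number was not measured.

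**Figure D5:**
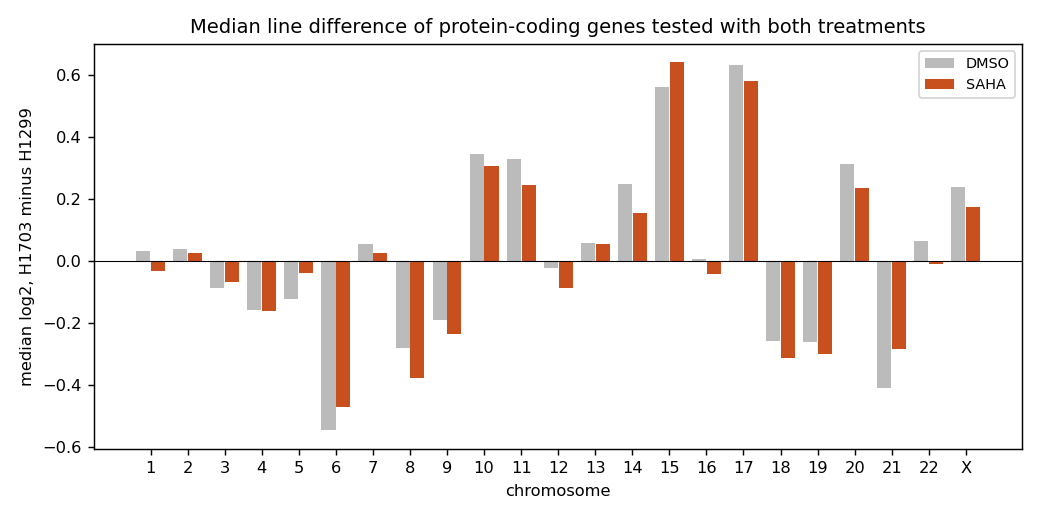
Median line difference (log2, H1703 minus H1299) over protein-coding genes tested with both treatments, for each chromosome, under DMSO (grey) and SAHA (orange). The medians of chromosomes 15 and 17 lie above 0.5 and that of chromosome 6 near -0.5 with both treatments.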

How the data were processed

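Poly(A) RNA-seq of H1299 and H1703 cells under DMSO or SAHA gave 3 libraries in each of 4 groups. Per the submitters' processing notes, FastQC 0.11.9, fastp, HISAT2 2.1.0, StringTie 1.3.3b, edgeR 3.30.3 and GRCh38 were used. The labels are contradictory on strandedness, so reads of overlapping genes on opposite strands may not be told apart. The deposited tables hold raw counts per gene, which the authors did not normalize, and FPKM values, which per the file headers stand beside them. The FPKM values were checked against the counts and gene lengths (201185 values, 100.0% within 1%) and not otherwise used.

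The counts were tested with edgeR 4.0.16 (quasi-likelihood, robust, TMM, filterByExpr with a minimum count of 10 and a total of 15) and limma 3.58.1 in R 4.3.3. Benjamini-Hochberg adjustment was over all genes tested. The fits used edgeR's default prior count, and a prior count of 2 entered log2 CPM values only. Separate fits took the 6 SAHA libraries, the 6 DMSO libraries and, for the change, all 12. The deposited tables of both lines were joined by gene ID, and 20242 of 58302 genes had no count. CPM used TMM factors over the 12 libraries. Scripts were tested on simulated data. DESeq2 1.42.0, other scalings, filters, a replicate block and leaving out each library were alternatives. The labels tie the replicate number to a batch. Deviations of same-numbered SAHA libraries of the lines correlated at -0.097, 0.0089 and -0.078, and those of the DMSO libraries at 0.042, 0.020 and 0.0060, and the block is an alternative, since no source used here names it in the study's own test.

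Genes named are the 10 largest folds in each direction, the 2 largest per list and direction, the 4 largest changes per class and direction, the 8 most abundant on-off genes per line and a list of genes of interest; exceptions are stated, and some genes that the rule names are not reported here. The gene lists, 51 in all, and the members were chosen with earlier results of these data known.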

Additional observations from a re-analysis of the deposited data

Results flagged for a closer look

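The line difference had opposite, called directions under DMSO and SAHA, with the change itself called in the test of the interaction over 12 libraries, for 581 genes. The 8 named by their size of change were the following. Towards H1703 the difference rose by 4.46 for TFPI2, 4.23 for NLRP1, 3.82 for SYT5, a synaptotagmin, and 3.71 for CD59, all on the log2 scale. Towards H1299 the change was -4.91 for SAMD11, -3.88 for ZNF618, a zinc finger gene, -3.61 for PRICKLE1 and -3.45 for GLI1, the effector of Hedgehog signalling. GLI1 went from 2.28 ± 0.278 CPM in H1299 and 16.7 ± 1.54 CPM in H1703 under DMSO to 16.1 ± 2.58 CPM in H1299 and 10.7 ± 0.544 CPM in H1703 under SAHA. SYT5 went from 7.95 ± 1.11 CPM in H1299 and 0.781 ± 0.179 CPM in H1703 under DMSO to 20.6 ± 3.5 CPM in H1299 and 28.9 ± 2.66 CPM in H1703 under SAHA. ZNF618 went from 8.24 ± 3.92 CPM in H1299 and 34.7 ± 7.34 CPM in H1703 under DMSO to 10.5 ± 2.58 CPM in H1299 and 3.03 ± 0.792 CPM in H1703 under SAHA. The spread of CD59 in H1703 under DMSO, 124 ± 48 CPM (SD, n = 3), was wide beside that of the other groups. No group had the 4 samples needed to look for outlying libraries.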

How the results depend on the processing

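The number of genes called between the lines under SAHA was 12167 and lay between 11346 and 11865 when a library was left out. It was 11686 with the replicate block, 11729 with DESeq2, 11524 with a filter of 1 CPM and 13443 without a filter. The replicate block gave 11878 calls under DMSO and 6254 for the change, and it left 7994 genes kept and 490 reversed. The number of reversed genes lay between 491 and 571 when a library was left out. All counts of calls and of kept, opened, closed and reversed genes stayed within 1.5 times the reported value in the alternatives run. The number of on-off genes did depend on its thresholds. With silence set at 0 counts in each library 34 genes were on in H1703 alone and 45 in H1299 alone, and with 1 CPM as the level of an active gene there were 279 and 262. Of 257 named genes tested, 15 gained or lost a call with an alternative. None of the 243 called changed direction, while some that were not called, such as FGFR1 and SOX2, differed in sign between alternatives. The call of the change differed for 42. Beside ASNS and HLA-B, the replicate block changed no call of a named gene under SAHA. Depth limits genes near 0 counts in a line, whose fitted differences depend on the prior count.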
